A study of Mus musculus with 12 samples.

Results

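The genes described are 10 that encode apolipoproteins and proteins of lipoprotein assembly: Apoa1, Apoa2, Apoa4, Apoa5, Apob, Apoc2, Apoc3, Apom, Lcat and Mttp. A gene was taken from the transcript clusters of the array that name it alone, and by the cluster of highest mean where there were several. Values were obtained in this way for 9 of the 10 genes, among 19938 genes with such a cluster. The 1 cluster that names Apoc2 also names the predicted gene Gm44805, so Apoc2 is given no value here. All 9 genes lay above the 40th percentile of the array in 12 of 12 arrays and entered the test over 13977 genes.

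Liver RNA from mice 2 weeks old was hybridised to 12 microarrays in 4 genotypes, with 3 arrays, lettered A, B and C, for each. The genotypes are Stat3Fl/Fl, with floxed Stat3 alleles; Stat3Δhc, a Stat3 knockout; Stat3Fl/FlMdr2-/-, the floxed alleles on an Mdr2 knockout; and Stat3Δhc Mdr2-/-, which carries both knockouts. Stat3Fl/Fl is the control for Stat3 deletion without the Mdr2 knockout, and Stat3Fl/FlMdr2-/- is the control on it. The driver of the Stat3 deletion, the strain and the sex of the mice are not given in the sources used here, nor whether each array is a separate animal. The p-values therefore measure the spread between these arrays, which may be technical. The series asks what STAT3, a transcription factor of cytokine signalling, does in a mouse model of sclerosing cholangitis, and loss of Mdr2, the canalicular phospholipid transporter encoded by Abcb4, is that model.

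Lipoproteins carry cholesterol and triglyceride in plasma, and liver and small intestine make most of their protein. Apolipoprotein B is the backbone of very low density lipoprotein and is loaded with lipid by the transfer protein encoded by Mttp, while apolipoproteins A-I and A-II form the frame of high density lipoprotein. The smaller apolipoproteins move between particles and set how fast lipases clear them. Liver cells also send phospholipid and cholesterol into bile, and Mdr2 is needed for the phospholipid.

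The arrays matched their titles. The log2 signal of Stat3 was 9.19 to 9.54 with floxed alleles and 7.69 to 8.12 in Stat3Δhc, with or without the Mdr2 knockout, and Abcb4 fell by 0.98 and by 1.08 with the Mdr2 knockout in floxed and Stat3Δhc liver. The source name field exchanges the labels of the Mdr2-/- genotypes, and Stat3 followed the titles. The mean of 9 hepatocyte markers was 12.50 to 12.83 in every array, with Alb at 13.65 to 13.89, so the liver label held. Markers of skeletal muscle had a mean of 8.74 to 9.48 in the arrays without the Mdr2 knockout and 5.47 to 5.90 in those with it, and 10 of 10 fell with Mdr2 loss in both backgrounds. Sex transcripts differed too. Xist was high and Y-linked transcripts were low in all 3 Stat3Fl/FlMdr2-/- arrays and in array A of Stat3Δhc Mdr2-/-, and the reverse held in the other 8 arrays, so sex pattern and Mdr2 loss in floxed liver cannot be told apart between those groups. Stat3 deletion on the Mdr2 knockout is unbalanced too, with 3 Xist arrays set against 1 Xist and 2 Y-linked arrays. A fit with sex pattern as a covariate takes the sex effect from array A of Stat3Δhc Mdr2-/- alone against arrays B and C, so it is not a test of sex, and its values are given only as the values of that fit. What muscle RNA or sex pattern adds to any value below was not tested. In whole tissue, fewer cells of a type and less RNA per cell cannot be told apart.

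The start regions of 3 of the genes are given first. Apoa2 is shown because it was the 1 gene of the group whose signal passed the test in any comparison, Apob because its signal was the most even over the arrays, and Apoa4 because its signal varied most. Each window holds 250 bases before and 50 bases after a RefSeq start on build GRCm38.p6, plus strand, with matches to TATAAA on either strand in capitals. The Apoa2 window is chr1:171224804-171225103, the Apob window chr12:7977427-7977726 and the Apoa4 window chr9:46240594-46240893. Apoa2 has another window, chr1:171221314-171221613, which holds 0 matches to TATAAA and is not shown.
Apoa2: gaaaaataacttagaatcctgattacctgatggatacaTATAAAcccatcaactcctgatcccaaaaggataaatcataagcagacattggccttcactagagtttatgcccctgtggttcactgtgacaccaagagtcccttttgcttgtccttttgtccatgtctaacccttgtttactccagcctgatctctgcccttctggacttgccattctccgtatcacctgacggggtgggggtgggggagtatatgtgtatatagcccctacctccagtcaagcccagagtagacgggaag
Apob: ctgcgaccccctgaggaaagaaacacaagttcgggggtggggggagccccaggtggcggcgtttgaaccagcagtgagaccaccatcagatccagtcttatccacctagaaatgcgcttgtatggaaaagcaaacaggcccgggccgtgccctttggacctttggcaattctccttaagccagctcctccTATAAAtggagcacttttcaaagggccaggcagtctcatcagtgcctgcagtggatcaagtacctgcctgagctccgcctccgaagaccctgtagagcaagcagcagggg
Apoa4: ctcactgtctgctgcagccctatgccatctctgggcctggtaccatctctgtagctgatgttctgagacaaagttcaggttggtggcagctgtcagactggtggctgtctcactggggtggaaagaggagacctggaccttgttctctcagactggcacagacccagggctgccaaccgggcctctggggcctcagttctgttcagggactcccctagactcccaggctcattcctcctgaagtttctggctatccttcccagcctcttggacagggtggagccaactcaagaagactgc

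RefSeq windows of this kind were matched to 9 of the 10 named genes, 11 windows in all, out of 32851 windows for the genome. The TATAAA letters lie at -60 to -55 from the start of Apob and at -212 to -207 from the start in the Apoa2 window shown. They also occur in both windows of Apoa5, at -31 to -26 and at -56 to -51, but these windows overlap and hold the same site. In all, 4 of the 11 windows, with 3 separate sites in 3 genes, hold TATAAA, against 13.6% of all windows. The STAT factor pattern TTCNNNGAA, searched on both strands, occurs in 0 of the 11 windows and in 8.3% of all windows. A core of the site of HNF4, the nuclear receptor that many apolipoprotein genes share, was searched as CAAAGTCCA and occurs in 0 of the 11 windows and 0.475% of all. The letters GTTAAT of the HNF1 site occur in 1 window, that of Apoc2 at -89 to -84, and in 7.1% of all windows. None of these letter patterns overlapped another in the 11 windows, and a match or its absence in so short a window describes the letters only. Apoa1, Apoc3, Apoa4 and Apoa5 are neighbours in that order on chromosome 9.

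Of the 9 genes, 0 passed the test with Stat3 deletion in either background, and 1, Apoa2, passed it with Mdr2 loss, in floxed liver. A gene was called at an adjusted p under 0.05 from limma, with Benjamini-Hochberg adjustment over all 13977 genes tested. Over all genes tested, 2.58% were called for Stat3 deletion without the Mdr2 knockout, 5.77% for Stat3 deletion on it, 0.0715% for the difference of those effects, 12.8% for Mdr2 loss in floxed liver and 17.4% for Mdr2 loss in Stat3Δhc liver. At those shares, counts of 0 and 1 among 9 genes do not set the group apart. The plot of the signal in each array shows how small the differences in signal were for most of these genes.

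**Figure D1:**
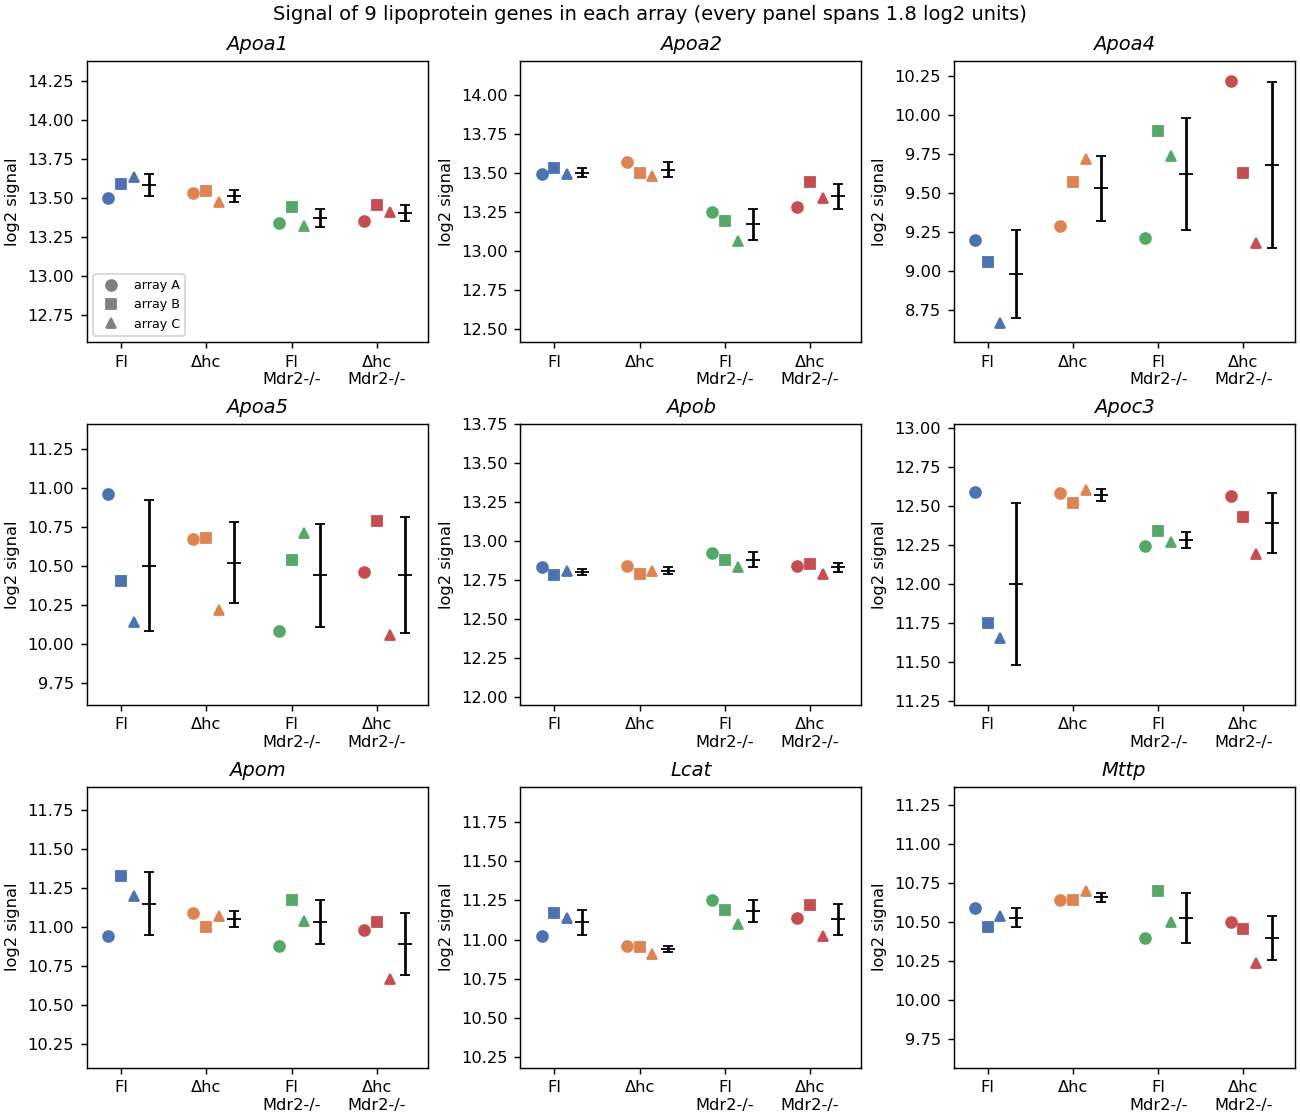
Log2 signal (y axis) of 9 lipoprotein genes in the 3 arrays of each genotype (x axis), with marker shape for array letter and the mean ± SD (n = 3) beside each group; every panel spans 1.8 log2 units. Apob stays between 12.78 and 12.92, and Apoa2 is lowest in Stat3Fl/FlMdr2-/-. For Apoc3, arrays B and C of Stat3Fl/Fl lie lowest at 11.75 and 11.65, with array A at 12.59.

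The genes differed in how far they varied. Apob spanned 0.15 log2 units over the 12 arrays, a 1.11-fold range, and its pooled SD within genotypes was 0.034. Apoa1 spanned 0.31, Lcat 0.33, Mttp 0.46, Apoa2 0.51 and Apom 0.66 log2 units. Wider ranges were found for Apoa5 at 0.90, Apoc3 at 0.95 and Apoa4 at 1.56, a 2.94-fold range. The median range of all genes tested was 0.60, so the signal of 5 of the 9 genes varied less than that of the median gene. Apob, Apoa1 and Apoa2 measured 12.78 to 13.63, high on an array scale whose highest value was 14.54. How well differences register at that level was not tested. The genes of the widest range were also those of the largest SD within genotypes, pooled over the 4 genotypes. It was 0.364 for Apoa4, 0.348 for Apoa5 and 0.276 for Apoc3, against a median of 0.137 over all genes tested.

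Among the structural proteins of high density lipoprotein, Apoa2 signal was lower without Mdr2. Apoa2 encodes apolipoprotein A-II. In Stat3Fl/Fl it measured 13.49, 13.53 and 13.49 in arrays A, B and C, a mean of 13.50 ± 0.03 (SD, n = 3). In Stat3Fl/FlMdr2-/- it measured 13.25, 13.19 and 13.06, a mean of 13.17 ± 0.10 (SD, n = 3). The groups did not overlap, and every array of the knockout lay below every control. With Mdr2 loss in floxed liver Apoa2 fell by 0.33 on the log2 scale (SE 0.08, 95% interval -0.51 to -0.16), a 1.26-fold lower signal, with adjusted p = 0.0148 by limma. Over all genes tested, 5.65% fell in that comparison.

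Apoa2 in the Stat3Δhc livers took a middle place once Mdr2 was lost. It measured 13.57, 13.50 and 13.48 in Stat3Δhc and 13.28, 13.44 and 13.34 in Stat3Δhc Mdr2-/-, with means of 13.52 ± 0.05 and 13.35 ± 0.08 (SD, n = 3 each). These groups did not overlap either, but the difference of -0.16 (SE 0.08, interval -0.33 to 0.01) missed the threshold (limma adjusted p = 0.162). Among arrays of the Y-linked pattern alone the difference was -0.13 (limma adjusted p = 0.293). Array A of Stat3Δhc Mdr2-/-, at 13.28 the lowest of that genotype, is its array with the Xist pattern. On the knockout, Stat3Δhc arrays lay above the floxed arrays for Apoa2 without overlap, by 0.19 (interval 0.01 to 0.36, limma adjusted p = 0.151). These groups are unbalanced for sex pattern, and with it as a covariate the value was 0.12 (limma adjusted p = 0.843). The order of the means was Stat3Δhc and Stat3Fl/Fl together at the top, then Stat3Δhc Mdr2-/-, then Stat3Fl/FlMdr2-/-. The test of whether Mdr2 loss acted differently in the 2 backgrounds, which is the difference of the Stat3 effects, gave 0.17 (interval -0.07 to 0.41, limma adjusted p = 0.408) for Apoa2, so the fall in floxed liver is not shown to be larger than that in Stat3Δhc liver.

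The call for Apoa2 was not held under every treatment of the data. It was lost after cyclic loess between arrays (-0.25, limma adjusted p = 0.0564), with the sex pattern as a covariate (-0.23, limma adjusted p = 0.582), without array B of Stat3Fl/Fl (-0.32, limma adjusted p = 0.0575) and without array C of Stat3Fl/FlMdr2-/- (-0.28, limma adjusted p = 0.0675). Its value stayed negative in each.

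Apoa1 encodes apolipoprotein A-I, the main protein of high density lipoprotein, and it too was lower in the Mdr2-/- livers. It measured 13.50, 13.59 and 13.63 in Stat3Fl/Fl and 13.34, 13.44 and 13.32 in Stat3Fl/FlMdr2-/-. In Stat3Δhc it measured 13.53, 13.54 and 13.47, and in Stat3Δhc Mdr2-/- 13.35, 13.45 and 13.41. The Mdr2-/- arrays lay below their controls without overlap in both backgrounds. The difference for Apoa1 was -0.21 in floxed liver (SE 0.07, interval -0.37 to -0.05, limma adjusted p = 0.0868) and -0.11 in Stat3Δhc liver (interval -0.27 to 0.05, adjusted p = 0.314). In floxed liver it passed the threshold with a trend and robust variance model (limma adjusted p = 0.0233). It also passed with array weights (-0.22, limma adjusted p = 0.0438). Over all genes tested, calls in floxed liver went from 1785 to 1921 with the former and to 2330 with the latter. Adding sex pattern to the model gave Apoa1 -0.13 in floxed liver, short of the threshold. Among arrays of the Y-linked pattern alone, its difference in Stat3Δhc liver was -0.08 (limma adjusted p = 0.513). Stat3 deletion gave Apoa1 differences of -0.06 (interval -0.23 to 0.10) and 0.04 (interval -0.12 to 0.20).

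The genes whose signal over the 12 arrays was most like that of Apoa2 were Slc2a9, a urate transporter, at a Pearson r of 0.964, Eef1a2, a translation elongation factor, at 0.961, and Apoe, the apolipoprotein of remnant clearance, at 0.95. These 3 values rank the genes tested and carry no test. Apoe had a mean of 13.72 ± 0.03 in Stat3Fl/Fl, 13.73 ± 0.06 in Stat3Δhc, 13.52 ± 0.07 in Stat3Fl/FlMdr2-/- and 13.60 ± 0.04 in Stat3Δhc Mdr2-/- (SD, n = 3 each). The change of Apoe with Mdr2 loss was -0.21 in floxed liver (limma adjusted p = 0.0905) and -0.13 in Stat3Δhc liver (adjusted p = 0.231), both short of the threshold.

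Apoa4 and Apoa5 encode apolipoproteins that act on triglyceride-rich particles, and both varied widely within a genotype. Apoa4, which is made mostly in small intestine, measured 9.20, 9.06 and 8.67 in Stat3Fl/Fl and 9.29, 9.57 and 9.72 in Stat3Δhc. The Stat3Δhc arrays lay above the floxed arrays, with array A of each genotype closest. The difference was 0.55 (SE 0.24, interval 0.03 to 1.08), a 1.47-fold higher signal for Apoa4 in Stat3Δhc that missed the threshold (limma adjusted p = 0.278).

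On the Mdr2 knockout Apoa4 measured 9.21, 9.90 and 9.74 in Stat3Fl/FlMdr2-/- and 10.22, 9.63 and 9.18 in Stat3Δhc Mdr2-/-. Those groups overlapped over most of their range, with a difference for Stat3 deletion of 0.06 (interval -0.47 to 0.59). With Mdr2 loss in floxed liver Apoa4 was 0.64 higher (SE 0.24, interval 0.11 to 1.17, limma adjusted p = 0.109), and the groups did not overlap although array A of each genotype nearly met. That value turned to -0.18 with the sex pattern as a covariate (limma adjusted p = 0.882). In Stat3Δhc liver the difference was 0.15 (interval -0.38 to 0.67), and -0.13 among arrays of the Y-linked pattern alone (limma adjusted p = 0.637). Array A of Stat3Δhc Mdr2-/-, the 1 array of that genotype with the Xist pattern, held the highest Apoa4 value of the series.

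Small intestine markers are given beside Apoa4, since small intestine also expresses it, and their part in its values was not tested. The mean of the 10 intestinal markers was 6.01 to 6.12 in Stat3Fl/Fl and 5.41 to 5.74 in Stat3Fl/FlMdr2-/-, and 5.94 to 6.67 in Stat3Δhc and 5.56 to 5.86 in Stat3Δhc Mdr2-/-. Of the 5 that were tested, Fabp2 and Dmbt1 fell with Mdr2 loss in both backgrounds and Rbp2 in Stat3Δhc liver. Over all arrays Fabp2, the intestinal fatty acid binding protein, ran from 8.05 to 9.50, Cdx1 from 7.03 to 7.93, Dmbt1 from 4.83 to 8.89, Alpi from 4.92 to 7.31 and Rbp2 from 4.73 to 6.83. Sis ran from 3.16 to 4.27 and Cdx2 from 4.96 to 5.49.

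Apoa5, a liver apolipoprotein that speeds the lipolysis of triglyceride, showed no order among genotypes. It measured 10.14 to 10.96 in Stat3Fl/Fl, 10.22 to 10.68 in Stat3Δhc, 10.08 to 10.71 in Stat3Fl/FlMdr2-/- and 10.06 to 10.79 in Stat3Δhc Mdr2-/-. All 4 groups overlapped, and the largest difference between their means was 0.08. The spread within genotypes leaves room for more, since the intervals of the 4 comparisons of genotypes for Apoa5 ran from -0.59 to 0.53.

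Apoc3 encodes apolipoprotein C-III, an inhibitor of lipolysis and of particle uptake. Arrays B and C of the floxed controls lay apart from array A and below every other array of the series. In Stat3Fl/Fl Apoc3 measured 12.59 in array A but 11.75 in array B and 11.65 in array C. In Stat3Δhc it measured 12.58, 12.52 and 12.60. Array A of the floxed controls thus lay among the Stat3Δhc arrays, and arrays B and C lay well below them. The SD of Apoc3 was 0.52 in Stat3Fl/Fl and 0.04 in Stat3Δhc (n = 3 each), and the difference of the means was 0.57 (SE 0.19, interval 0.16 to 0.98) with unadjusted p = 0.00998 and adjusted p = 0.135 by limma. With array weights it passed the threshold (0.67, limma adjusted p = 0.00391). That setting raised the calls over all genes tested from 361 to 2955 in this comparison.

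On the Mdr2 knockout Apoc3 measured 12.24, 12.34 and 12.27 in Stat3Fl/FlMdr2-/- and 12.56, 12.43 and 12.19 in Stat3Δhc Mdr2-/-. These groups overlapped, and Stat3 deletion gave 0.11 (interval -0.30 to 0.52). Mdr2 loss gave Apoc3 0.29 in floxed liver (interval -0.12 to 0.70) and -0.18 in Stat3Δhc liver (interval -0.59 to 0.23). The difference of the Stat3 effects was -0.46 (interval -1.04 to 0.12, limma adjusted p = 0.366). With the sex pattern as a covariate, Mdr2 loss in floxed liver gave Apoc3 0.04 (limma adjusted p = 0.976). The difference in that fit was -0.30 (limma adjusted p = 0.938). Sex pattern and Mdr2 loss in floxed liver cannot be told apart, as given above.

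Without array A of Stat3Fl/Fl, the Stat3 effect on Apoc3 was 0.87 (limma adjusted p = 0.00108), the difference of the Stat3 effects -0.76 (limma adjusted p = 0.0478) and the Mdr2 effect in floxed liver 0.59 (limma adjusted p = 0.00608). Without array B or C of that genotype the Stat3 effect was 0.45 or 0.40, and neither passed the threshold (limma adjusted p = 0.452 and 0.476). Exocrine pancreas markers also differed among those arrays, with a mean of 5.42 in array A, 9.34 in array B and 7.57 in array C. In arrays A, B and C of Stat3Δhc the pancreas mean was 5.75, 8.28 and 10.20. Hepatocyte markers had a mean of 12.75, 12.50 and 12.67 in arrays A, B and C of Stat3Fl/Fl. Macrophage markers had a mean of 8.65 in array A, 9.11 in array B and 9.22 in array C, and 8.52 to 8.74 in Stat3Δhc. Endothelial, stellate cell, bile duct, lymphocyte and muscle means were also lowest in array A of the 3. The part of these cell types in the Apoc3 values was not tested.

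**Figure D2:**
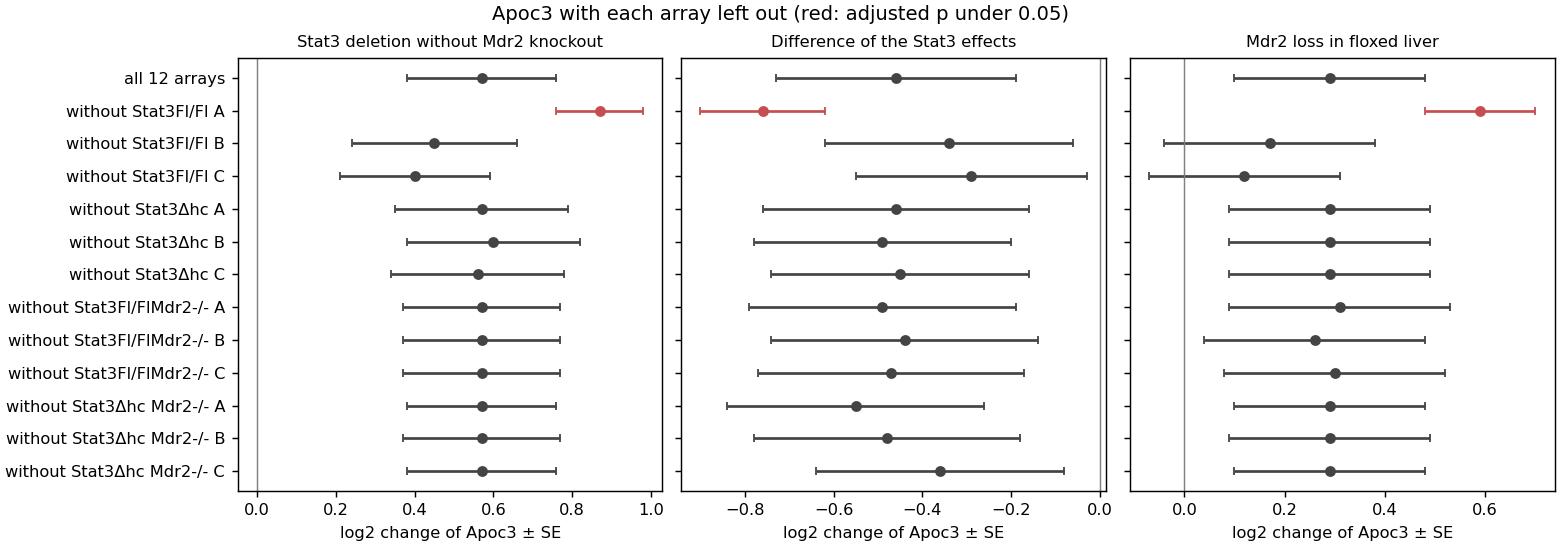
Log2 change of Apoc3 ± SE (x axis) in 3 comparisons, with all 12 arrays and with each array left out in turn (y axis); red marks an adjusted p under 0.05 by limma. Leaving out array A of Stat3Fl/Fl moved the change from 0.57 to 0.87, from -0.46 to -0.76 and from 0.29 to 0.59, and no other array left out gave a call.

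Apob and Mttp carry out the assembly of very low density lipoprotein, and the signal of Apob varied least among the 9 genes. It measured 12.78 to 12.83 in Stat3Fl/Fl, 12.79 to 12.84 in Stat3Δhc, 12.83 to 12.92 in Stat3Fl/FlMdr2-/- and 12.79 to 12.85 in Stat3Δhc Mdr2-/-. Stat3 deletion gave 0.01 (interval -0.14 to 0.16) without the Mdr2 knockout and -0.05 (interval -0.20 to 0.10) on it. Mdr2 loss gave Apob 0.07 (interval -0.08 to 0.22) in floxed liver and 0.01 (interval -0.14 to 0.16) in Stat3Δhc liver. In floxed liver the Mdr2-/- arrays lay just above the controls, touching at 12.83 when rounded. The intervals for Apob thus reach no further than 0.22 from 0 in any comparison of 2 genotypes.

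Mttp encodes the large subunit of microsomal triglyceride transfer protein, and it was lowest on average in Stat3Δhc Mdr2-/-. It measured 10.59, 10.47 and 10.54 in Stat3Fl/Fl and 10.64, 10.64 and 10.70 in Stat3Δhc. In Stat3Fl/FlMdr2-/- it measured 10.40, 10.70 and 10.50, and in Stat3Δhc Mdr2-/- 10.50, 10.46 and 10.24. The Stat3Δhc arrays were above all others except array B of Stat3Fl/FlMdr2-/-, and array C of Stat3Δhc Mdr2-/- was the lowest. Mttp differed by 0.00 (interval -0.21 to 0.21) with Mdr2 loss in floxed liver and by -0.25 (SE 0.10, interval -0.46 to -0.05, limma adjusted p = 0.0865) in Stat3Δhc liver, where the groups did not overlap. That value reached -0.32 (limma adjusted p = 0.0477) with arrays centred on their medians and -0.19 (limma adjusted p = 0.0233) with array weights. Over all genes tested, calls in that comparison went from 2431 to 2687 with median centring and to 5830 with array weights. The difference of the Stat3 effects for Mttp, which is also the difference of the Mdr2 effects, was -0.26 (interval -0.55 to 0.04, limma adjusted p = 0.339).

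Apom and Lcat act on high density lipoprotein after it leaves the cell. Lcat encodes the plasma enzyme that esterifies cholesterol on these particles. Its signal was 11.02, 11.17 and 11.14 in Stat3Fl/Fl and 10.96, 10.95 and 10.91 in Stat3Δhc. On the knockout it was 11.25, 11.19 and 11.10 with floxed Stat3 and 11.14, 11.22 and 11.02 in Stat3Δhc Mdr2-/-. The Stat3Δhc arrays were thus the lowest 3 of the 12 for Lcat, and the other genotypes overlapped each other. Against Stat3Fl/Fl the Lcat difference was -0.17 (SE 0.08, interval -0.34 to 0.00, limma adjusted p = 0.315), and it passed the threshold with array weights (-0.17, limma adjusted p = 0.046). Against Stat3Δhc, the Stat3Δhc Mdr2-/- arrays were 0.19 higher (interval 0.01 to 0.36, limma adjusted p = 0.123), which passed after cyclic loess (0.25, limma adjusted p = 0.0382) and with array weights (0.24, limma adjusted p = 0.00319). These comparisons share the Stat3Δhc arrays. Array weights raised the calls over all genes tested from 361 to 2955 in the first and from 2431 to 5830 in the second.

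Apom encodes the lipocalin of high density lipoprotein that binds sphingosine 1-phosphate. Its mean was 11.15 ± 0.20 in Stat3Fl/Fl, 11.05 ± 0.05 in Stat3Δhc, 11.03 ± 0.14 in Stat3Fl/FlMdr2-/- and 10.89 ± 0.20 in Stat3Δhc Mdr2-/- (SD, n = 3 each), and the 12 arrays ran from 10.67 to 11.33. Neighbouring groups overlapped throughout, and every comparison of 2 genotypes gave Apom a negative value between -0.10 and -0.16, with intervals from -0.42 to 0.16. The lowest adjusted p for Apom by limma in these 4 comparisons was 0.363.

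With Stat3 deletion in liver without the Mdr2 knockout, 3 of the 9 genes had groups that did not overlap, Apoa4 and Mttp higher and Lcat lower, against 25.1% of all genes tested. Unadjusted p was under 0.05 for 2 genes, Apoa4 and Apoc3. The median log2 change of the 9 genes was 0.01, and that of all genes tested was -0.01. The 95% interval lay within 0.5 log2 units of 0, a 1.41-fold change, for 6 of the 9 genes and within 1 for 8. The exception was Apoa4, whose upper bound was 1.08.

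Stat3 deletion on the Mdr2 knockout, the comparison made in the model of cholangitis, left 1 of the 9 genes without overlap, Apoa2 with a higher signal in Stat3Δhc Mdr2-/-, against 28.6% of all genes tested. Apoa2 was also the 1 gene with an unadjusted p under 0.05. The median of the 9 changes was -0.01, against -0.03 over all genes tested. All 9 intervals lay within 1 log2 unit of 0, and 6 lay within 0.5. The difference of the Stat3 effects passed for 0 of the 9 genes in limma, with 0 at an unadjusted p under 0.05, and its intervals were wider, from -1.24 to 0.69.

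Mdr2 loss in floxed liver gave 4 genes whose groups did not overlap, Apoa4 and Apob with higher and Apoa1 and Apoa2 with lower signal, against 33.3% of all genes tested. In Stat3Δhc liver there were also 4, Lcat with higher and Apoa1, Apoa2 and Mttp with lower signal, against 37.2%, and unadjusted p was under 0.05 for 2, Lcat and Mttp. Apoa1 and Apoa2 were thus below their controls in every array in both backgrounds, which share no arrays. The median change of the 9 genes was 0.00 in floxed liver and -0.11 in Stat3Δhc liver, against 0.00 and -0.02 over all genes tested. Within 0.5 log2 units of 0 lay 5 and 6 of the 9 intervals.

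**Figure D3:**
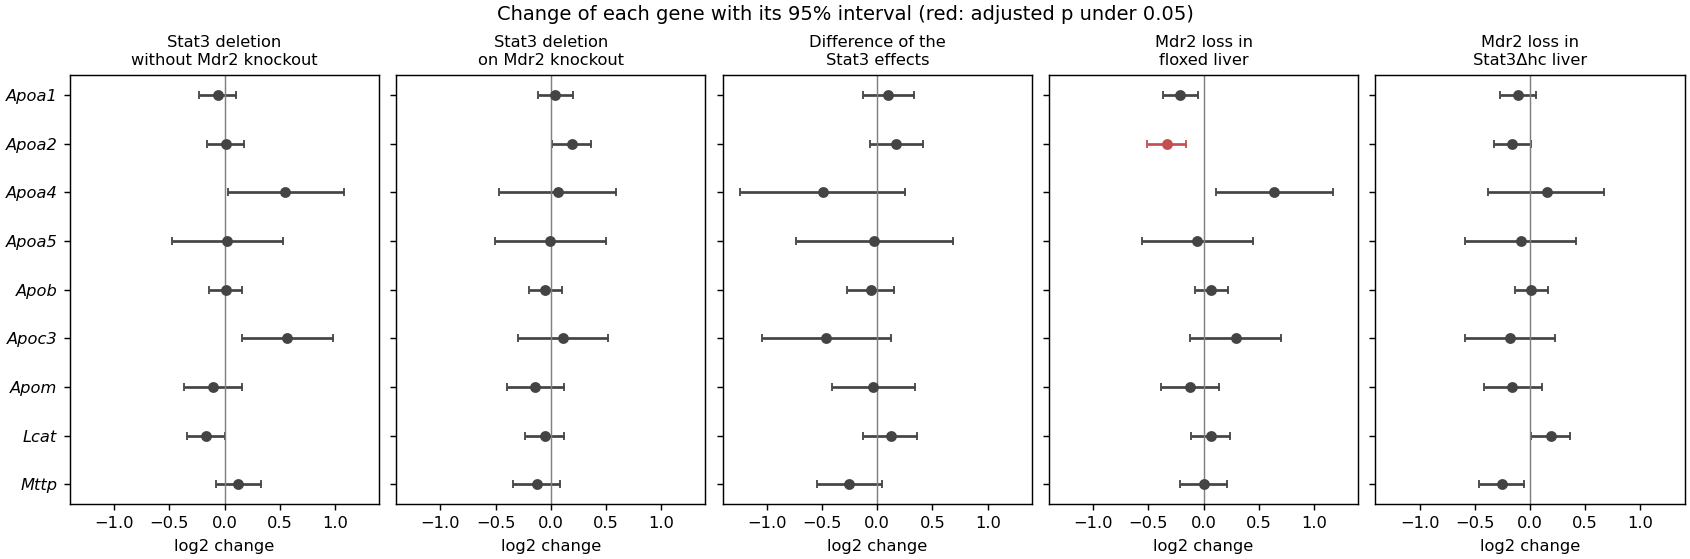
Log2 change (x axis) of each of the 9 genes (y axis) with its 95% interval in 5 comparisons, from limma on 12 arrays; red marks an adjusted p under 0.05. Apoa2 with Mdr2 loss in floxed liver is the 1 red point at -0.33, and the intervals of Apoa4, Apoa5 and Apoc3 are the widest.

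Beyond the 9 genes, 5 lists of the same pathway were followed. With Stat3 deletion without the Mdr2 knockout 0 tested members of any of the 5 lists were called. On the knockout, where 1.87% of all genes tested rose and 3.9% fell, 1 of 9 other apolipoproteins was called, Apoc1, an inhibitor of lipoprotein uptake, which rose by 0.35 (SE 0.08, limma adjusted p = 0.0284). The call for Apoc1 was lost with only the compared groups fitted (0.35, limma adjusted p = 0.12), with the letter as a block (0.35, limma adjusted p = 0.054) and with the sex covariate (0.31, limma adjusted p = 0.388). It was also lost without array A (0.28, adjusted p = 0.073) or C (0.37, adjusted p = 0.0669) of Stat3Fl/FlMdr2-/-, and without array B (0.32, adjusted p = 0.0928) or C (0.36, adjusted p = 0.0519) of Stat3Δhc Mdr2-/-. Among 28 transcription regulators, Srebf1, the driver of fatty acid synthesis, fell by 0.50 (limma adjusted p = 0.0393) and Ppargc1b, a coactivator, rose by 0.46 (limma adjusted p = 0.0438). The Srebf1 call was lost with no filter (-0.50), cyclic loess (-0.42), only the compared groups (-0.50), the letter as a block (-0.50) and the sex covariate (-0.48), with limma adjusted p of 0.0542, 0.0689, 0.0867, 0.0648 and 0.401. It was also lost without array A of Stat3Δhc (-0.50), C of Stat3Fl/Fl (-0.50), A or B of Stat3Fl/FlMdr2-/- (-0.42 and -0.44), or B or C of Stat3Δhc Mdr2-/- (-0.51 and -0.48), with limma adjusted p from 0.0539 to 0.128. The Ppargc1b call was lost with no filter (0.46), median centring (0.46), only the compared groups (0.46) and the sex covariate (0.45), with limma adjusted p of 0.0595, 0.0529, 0.0847 and 0.401. It was lost too without any single array of Stat3Δhc, Stat3Fl/FlMdr2-/- or Stat3Δhc Mdr2-/-, at values from 0.37 to 0.52 and limma adjusted p from 0.0515 to 0.139. In this comparison, unbalanced for sex pattern, 2 of 8 macrophage and 3 of 8 stellate cell markers also fell. So did 1 of 7 endothelial and 1 of 6 bile duct markers, and the part of these cell types was not tested.

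With Mdr2 loss, members of all 5 lists were called, beside 7.12% of all genes tested that rose and 5.65% that fell in floxed liver and 6.9% and 10.5% in Stat3Δhc liver. Of the other apolipoproteins, 1 of 9 rose and 3 fell in floxed liver, and likewise 1 rose and 3 fell in Stat3Δhc liver. Clu, the chaperone also known as apolipoprotein J, measured 11.72 to 11.83 in Stat3Fl/Fl and 12.67 to 12.96 in Stat3Fl/FlMdr2-/-. It rose by 1.07 (SE 0.10, limma adjusted p = 2.82e-05) in floxed liver and by 0.89 (SE 0.10, limma adjusted p = 0.000111) in Stat3Δhc liver. No alternative or left-out array ended either call for Clu. Apoc1 fell by 0.45 (limma adjusted p = 0.0037) in floxed liver and by 0.33 (limma adjusted p = 0.017) in Stat3Δhc liver. The latter call was lost without array A or C of Stat3Δhc. Saa4, an apolipoprotein of the serum amyloid family, fell by 1.09 (limma adjusted p = 0.00137) in Stat3Δhc liver.

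Of 22 genes of apolipoprotein B particle assembly, 4 rose and 1 fell in floxed liver and 3 rose and 2 fell in Stat3Δhc liver. Lpin1, a phosphatidate phosphatase of triglyceride synthesis, rose by 2.10 (SE 0.28, limma adjusted p = 0.000576) and 1.57 (SE 0.28, limma adjusted p = 0.00297). Its relative Lpin2 rose by 0.76 and 0.99, while Aadac, an esterase thought to supply lipid for very low density lipoprotein, fell by 0.46 and 0.49. Apobec1, the deaminase that edits Apob RNA, rose by 0.65 (limma adjusted p = 0.00244) in Stat3Δhc liver. It was also called in floxed liver (0.48, limma adjusted p = 0.0144). That floxed call was lost with the sex covariate and without array A of Stat3Fl/Fl or array C of Stat3Fl/FlMdr2-/-. The signal of Apob, which encodes the protein that these steps load with lipid, differed by 0.07 and 0.01.

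Among 15 lipases, their regulators and lipid transfer proteins, 3 rose and 3 fell in floxed liver and 4 rose and 4 fell in Stat3Δhc liver. Angptl4, an inhibitor of lipoprotein lipase, rose by 0.92 (limma adjusted p = 0.00818) and 1.05 (limma adjusted p = 0.0034), and Angptl8, a related inhibitor induced by feeding, fell by 1.48 (limma adjusted p = 0.0033) and 1.47 (limma adjusted p = 0.00293). Of 16 receptors and efflux genes, 3 rose and 0 fell in floxed liver and 2 rose and 2 fell in Stat3Δhc liver, with Lsr, the lipolysis-stimulated receptor, up by 0.69 and 0.66. In Stat3Δhc liver Scarb1, the high density lipoprotein receptor, rose by 0.43 (limma adjusted p = 0.00499) and Sdc1, a proteoglycan that takes up remnants, fell by 0.49 (limma adjusted p = 0.00961). Scarb1 was also called in floxed liver (0.35, limma adjusted p = 0.0167). That floxed call was lost with the sex covariate and when certain single arrays were left out. Of 28 transcription regulators, 1 rose and 1 fell in floxed liver and 2 rose and 3 fell in Stat3Δhc liver, with Srebf1 down by 0.86 and 1.19. Nr5a2, a nuclear receptor of bile acid and cholesterol genes, fell by 0.35 (limma adjusted p = 0.00657) in Stat3Δhc liver. Hnf4a, the regulator many apolipoprotein genes share, differed by 0.24 (limma adjusted p = 0.0535) and 0.09 (adjusted p = 0.411).

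Of the 17 pathway genes chosen for naming in floxed liver, 9 kept the call with every array left out in turn and 1, Clu, kept it with the sex pattern as a covariate. In that fit the values were 1.72 for Lpin1, 0.68 for Lpin2, -0.55 for Aadac, 0.79 for Angptl4, -2.13 for Angptl8 (limma adjusted p = 0.0534), 0.50 for Lsr, -0.90 for Srebf1 and -0.38 for Apoc1, all in the same direction as without the covariate. In Stat3Δhc liver 13 of 20 kept it under every alternative, Lpin1, Lpin2, Aadac, Angptl4, Angptl8, Lsr, Srebf1, Saa4 and Clu among them. Skeletal muscle markers fell beside all of these with Mdr2 loss, as given above. All 7 exocrine pancreas markers had lower values too, with medians of -2.23 and -2.56 and 0 called by limma. Of 3 erythroid markers 2 fell in each background, and of 8 stellate cell markers 3 fell in floxed liver while 5 fell and 3 rose in Stat3Δhc liver. In Stat3Δhc liver, of 9 hepatocyte markers 2 fell and 1 rose, and 3 of 7 endothelial and 2 of 6 bile duct markers fell. Of 3 lymphocyte markers 2 rose there, as did 1 of 8 macrophage markers. In floxed liver 0 hepatocyte, bile duct and lymphocyte markers were called, 1 endothelial marker rose and 1 macrophage marker fell. The part of these cell types was not tested.

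**Figure D4:**
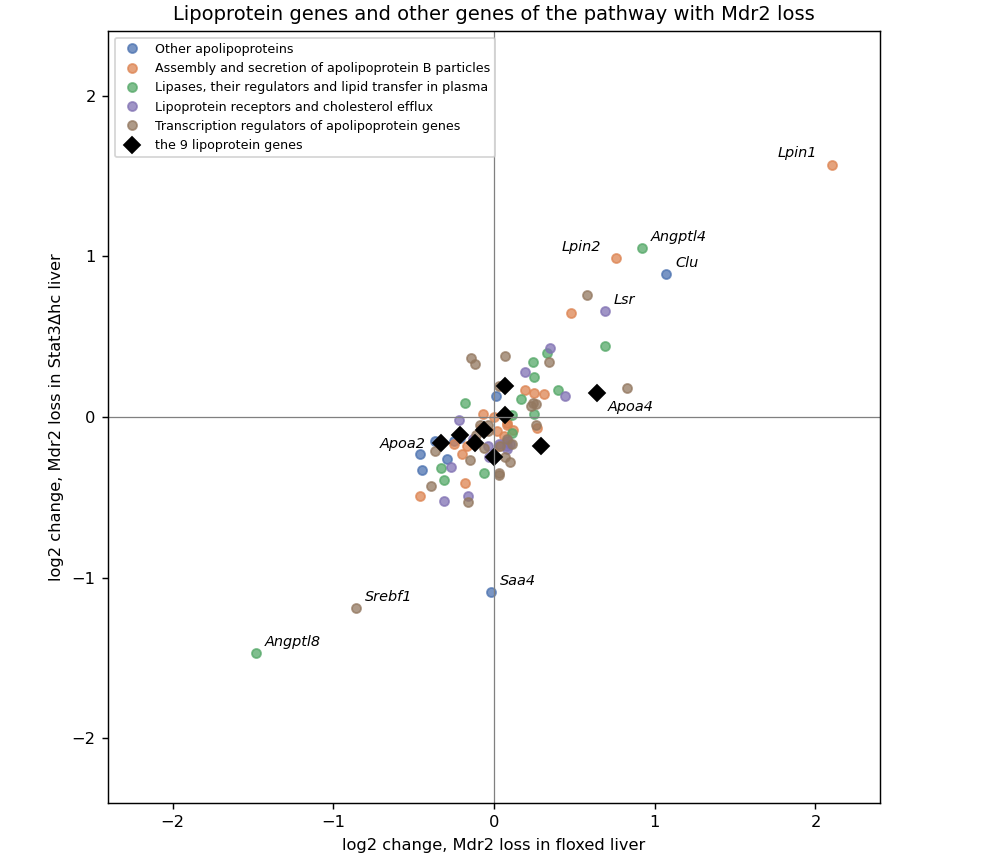
Log2 change with Mdr2 loss in floxed liver (x axis) against that in Stat3Δhc liver (y axis), for the 9 lipoprotein genes (black diamonds) and the tested genes of 5 pathway lists (circles); the comparisons share no arrays. The diamonds lie within 0.64 of 0 on both axes, while Lpin1 lies at 2.10 and 1.57 and Angptl8 at -1.48 and -1.47.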

How the data were processed

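The samples were 12 Affymetrix mouse Gene 1.0 ST arrays of total liver RNA, grouped by title. The deposited values are log2 signals that the authors made by RMA, per the submitters' processing notes, with no version given. They were used as deposited. Of 35556 clusters, 21789 name 1 gene in the annotation used here, 1621 several and 12146 none. Testing was limited to the 13977 genes that exceeded the 40th percentile on 3 or more arrays. A single limma 3.58.1 model (lmFit, eBayes, R 4.3.3) took in the 12 arrays with 8 residual degrees of freedom, and p-values were adjusted by Benjamini-Hochberg and read at 0.05. The script was tested on simulated data. The number of arrays limits the precision: the median SE was 0.11 between genotypes, and for the difference of Stat3 effects 0.155. Alternatives were no filter or a 60th percentile filter, cyclic loess, median centring, the mean of a gene's clusters, only the compared groups, trend and robust eBayes, array weights, the letter as a block, sex pattern, and leaving out each array. For the pathway genes these were applied after the data were seen. Named pathway genes are up to 4 called members per list and comparison by smallest adjusted p. Values are given for those that kept the call with each array left out. With Mdr2 loss, a gene that kept it in 1 background also has its value given in the other where it was called there. For Stat3 deletion on the knockout all values are given. Named likenesses are the 3 highest Pearson r to a called gene. The members and lists were chosen with earlier results of these data known. Promoter windows are RefSeq's on GRCm38.p6. Coordinates of the array's probes were not used here.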

Additional observations from a re-analysis of the deposited data

How the results depend on the processing

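Of the values of the 9 genes in the 5 comparisons under alternatives other than leaving out an array, 427 kept their direction and their side of the threshold, 11 passed it newly, 2 lost it and 19 changed sign, all 19 among values short of the threshold. With an array left out the counts were 507, 3, 2 and 28.

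The count of the 9 genes called for Stat3 deletion without the Mdr2 knockout was 0 and became 2 with array weights. On the knockout it was 0 and became 1 with array weights. For Mdr2 loss in floxed liver it was 1 and became 0 after cyclic loess or with the sex covariate, 2 with trend and robust eBayes and 3 with array weights. In Stat3Δhc liver it was 0 and became 1 after cyclic loess or median centring and 3 with array weights. Leaving out each array in turn gave 0 to 1, 0 to 0, 0 to 1 for the difference, 0 to 2 and 0 to 0. The cause was not tested.

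Values that changed sign were, for Stat3 deletion on the knockout, Apoa1 with the sex covariate (-0.02), Apoa5 after cyclic loess (0.06), with array weights (0.19) and with the sex covariate (0.02), and Lcat after cyclic loess (0.00) and with array weights (0.02). For the difference of the Stat3 effects they were Apoa4 with the sex covariate (0.06), Apoa5 after cyclic loess (0.04), and Apom after cyclic loess (0.01), with array weights (0.06) and with the sex covariate (0.05). For Mdr2 loss in floxed liver they were Apoa4 with the sex covariate (-0.18), Apoa5 with array weights (0.07), and Mttp after median centring (-0.04) and with the sex covariate (-0.15). For Mdr2 loss in Stat3Δhc liver they were Apoa4 with the sex covariate and with Y-linked arrays alone (-0.13 in both), Apoa5 with array weights (0.04) and Apob after median centring (-0.05). With an array left out, Stat3 deletion without the knockout ranged from -0.01 to 0.03 for Apoa2, -0.16 to 0.25 for Apoa5 and 0.00 to 0.02 for Apob, and on it from -0.21 to 0.31 for Apoa4 and -0.19 to 0.18 for Apoa5. The difference ranged from -0.26 to 0.16 for Apoa5 and -0.12 to 0.08 for Apom. Mdr2 loss ranged in floxed liver from -0.24 to 0.17 for Apoa5 and -0.08 to 0.07 for Mttp, and in Stat3Δhc liver from -0.13 to 0.40 for Apoa4 and -0.26 to 0.10 for Apoa5.

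Over all genes tested, array weights raised the calls for Stat3 deletion from 361 to 2955 without the knockout and from 806 to 2298 on it, for the difference from 10 to 567, and for Mdr2 loss in Stat3Δhc liver from 2431 to 5830. The sex covariate lowered them to 37 for Stat3 deletion on the knockout, 6 for the difference and 102 of 1785 for Mdr2 loss in floxed liver, and fitting only the compared groups gave 230 for Stat3 deletion on the knockout and 1541 for Mdr2 loss in Stat3Δhc liver. Y-linked arrays alone gave 234 for Stat3 deletion without the knockout, and the difference had 23 with trend and robust eBayes and 6 without a filter. With an array left out the 5 counts ranged from 69 to 753, 302 to 1475, 0 to 64, 1105 to 2129 and 1156 to 2613. Higher calls for Stat3 deletion on the knockout went from 261 of 806 to 466 of 910 after cyclic loess, and after median centring from 995 of 1785 to 673 of 1561 for Mdr2 loss in floxed liver and from 964 of 2431 to 635 of 2687 in Stat3Δhc liver.

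Whether the array letters pair the samples was not settled. Over 18 pairs of the same letter, correlations of deviations from the genotype mean ran from -0.409 to 0.366, and 4 were over 0.1. Of 12 arrays, 6 correlated best with an array of their own letter. Pairs of different letters were not summarised beside these, so a shared effect of the letter was not tested. With the letter as a replicate block, the counts of the 9 genes stayed 0, 0, 0, 1 and 0, Apoa2 with Mdr2 loss in floxed liver had limma adjusted p = 0.0282, and calls over all genes were 237, 473, 3, 1453 and 1865.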
